A study of Ptychodera flava with 31 samples.

Results

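Growing tornaria larvae of the acorn worm Ptychodera flava were compared across 4 consecutive stages, Heider, Meschnikoff, Krohn and Spengel, as the sample labels spell them. The 8 libraries with these stages in their titles, 2 per stage, were taken from 31 libraries of 16 stages. The older side of the comparison (late larvae) held 2 Krohn and 2 Spengel libraries, and the younger side (early larvae) held 2 Heider and 2 Meschnikoff libraries. All were polyA-selected, strand-specific RNA-seq libraries of whole wild-type animals with no treatment. The labels give no age in hours, no parents, no culture and no number of animals per library. Replicates of a stage therefore show the spread between these samples. The study followed gene expression through development with an indirect, planktonic larva, and the questions here were what changed as the swimming larva grew, and whether each change ran evenly over the 4 stages or fell between a single pair of them.

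Acorn worms are hemichordates, the sister group of echinoderms, and many pass through a tornaria. The tornaria swims with a posterior ring of cilia and feeds with a looped ciliary band around the mouth. The loops become more elaborate as the feeding larva grows, and the band is reduced again in the Agassiz stage before the larva settles and transforms into a burrowing worm. In libraries of whole larvae, a tissue that grows and a cell that makes more of a transcript give the same rise, and fewer cells of a type and less RNA per cell cannot be told apart.

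Values are given per transcript model, under the identifiers of the deposited tables, which do not pair them with gene names. None of the 35854 identifiers occurred in the RefSeq gene table used for reference, so no transcript below is given a gene name, a role or a sequence. Neighbouring or near-identical models can share reads, and their separate levels are uncertain. Of the 35854 models, 34721 had a count in the 8 libraries and 25506 passed the filter on low counts.

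The libraries held 14563672 to 15756232 estimated counts in the late larvae and 15836338 to 17288661 in the early larvae, so that every late library was shallower than every early one (exact permutation test, two-sided, n = 4 each, p = 0.0286, the smallest this design can give). The number of models at 1 TPM or more (TPM, a length-corrected relative abundance) was 22759 ± 837.2 in the late larvae and 21486 ± 371.4 in the early larvae (SD, n = 4 each; exact permutation test, two-sided, p = 0.0571, which is also the value adjusted over 2 such measures). The 100 most abundant models took 24.8 ± 0.827% of TPM in late and 26.8 ± 0.942% in early larvae (SD, n = 4 each; exact permutation test, p = 0.0571, also after adjustment). The part of depth in the results below was not tested beyond the scaling of the libraries. Pearson's r between libraries, taken across transcripts on log2(TPM + 1), averaged 0.974 within a stage (4 pairs), 0.960 at 1 stage apart (12 pairs), 0.928 at 2 stages apart (8 pairs) and 0.904 at 3 stages apart (4 pairs). The replicates of Heider were the least alike (r = 0.961), and those of Meschnikoff the most alike (r = 0.983). Heider replicate 1 was nearer to Meschnikoff replicate 1 (r = 0.977) than to Heider replicate 2, and about as near to Meschnikoff replicate 2 (r = 0.961). Heider replicate 2 stood at r = 0.934 and 0.926 with Meschnikoff replicates 1 and 2. On the first principal component, which held 52.7% of the variance, the libraries stood in the order of the stages, at -94.8 and -110.1 for Heider, -46.5 and -15.7 for Meschnikoff, 55.8 and 48.6 for Krohn, and 87.5 and 75.2 for Spengel. The widest gap between neighbouring libraries on this axis lay between Meschnikoff and Krohn, from -15.7 to 48.6. The second component, with 23.5% of the variance, set the Heider replicates far apart, at -8.1 and 83.5.

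Late larvae differed from early larvae mainly by transcripts that were higher late. Of 25506 models tested, 2453 (9.62%) were called, meaning a Benjamini-Hochberg adjusted p under 0.05 in edgeR's quasi-likelihood test and at least a 2-fold difference. Of these, 1793 (7.03% of those tested) were higher in late larvae and 660 (2.59%) were lower. They are called risers and fallers here. The median log2 fold change, late over early, was 2.63 for the risers and -1.77 for the fallers, against -0.03 over all models tested. Among the risers 1223 (68.2%) differed at least 4-fold and 383 (21.4%) at least 16-fold, and among the fallers 263 (39.8%) and 52 (7.88%) did. Over all models tested, 21.5% differed at least 2-fold in either direction and 8.62% at least 4-fold.

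Risers started from low levels. The median riser averaged 4.28 TPM in late larvae and 0.598 TPM in early larvae, and the median faller 2.54 TPM in late larvae and 9.8 TPM in early larvae, where the median over all models tested was 8.16 TPM late and 7.94 TPM early. A group of 314 risers stood under 1 TPM in all 4 early libraries and at 1 TPM or more in all 4 late ones. Over all 25506 models tested 343 did, so nearly all such models were risers, as the choice of members from these libraries would give. The opposite held for 57 fallers, a pattern that was not counted over all models. Summed over the 1793 risers, the share of all TPM was 3.64% and 3.01% in Krohn and 5.35% and 4.43% in Spengel libraries, against 0.593% and 0.753% in Heider and 0.777% and 1.14% in Meschnikoff libraries. Summed over the 660 fallers, it was 0.92% and 0.769% in Krohn and 0.638% and 0.782% in Spengel, against 6.09% and 6.6% in Heider and 3.04% and 2.18% in Meschnikoff. The late and early shares did not overlap in either sum, as the choice of the members from these libraries would give. The libraries of the sides did not overlap for 1678 of 1793 risers and for 608 of 660 fallers, and among all 25506 tested this held for 3002 models higher late and 2059 lower late. The median length was 2073 bases for risers, 1992.5 for fallers and 2000.5 for all models tested.

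The size of both counts rested on particular libraries. Without Heider replicate 1 there were 644 risers and 218 fallers, without Meschnikoff replicate 1 there were 828 and 392, without Spengel replicate 1 there were 691 and 224, and without Spengel replicate 2 there were 801 and 275. Leaving out any other single library gave 1326 to 1910 risers and 471 to 989 fallers.

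The rule for named transcripts took those with the largest fold changes among models with at least 10 CPM on their higher side and no overlap between the sides (CPM, counts scaled to library size with TMM), which left 540 risers and 330 fallers to choose from. TCONS_00050772, a model of 2012 bases, had 0.754 and 10.2 CPM in Krohn and 198.8 and 448.2 CPM in Spengel larvae, against 0.287 and 0 CPM in Heider and 0.186 and 0 CPM in Meschnikoff larvae. The Spengel libraries carried nearly all of the late level, and the Krohn replicates were far apart. Its log2 fold change was 10.3 ± 2.14 (SE; edgeR adjusted p = 0.0217), and the adjusted p was 0.0664 without Heider replicate 1, 0.06 without Meschnikoff replicate 1 and 0.053 without Spengel replicate 1. TCONS_00019748, of 378 bases, had 1.89 and 7.91 CPM in Krohn and 61.7 and 121.6 CPM in Spengel, against 0 CPM in both Heider libraries and 0 and 0.127 CPM in Meschnikoff. With 3022 late and 2 early counts, the ratio of late to early was 1593 (95% interval for counting error 440.6 to 13160; edgeR adjusted p = 0.0128). Both transcripts were thus at or near 0 in every early library, and their highest libraries were those of Spengel.

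TCONS_00025036, of 739 bases, had no count in either Krohn library and 0 and 0.0642 CPM in Spengel, against 81.6 and 74.3 CPM in Heider and 20 and 6.02 CPM in Meschnikoff. It had 1 late and 3001 early counts, a ratio of early to late of 2846 (95% interval for counting error 510.5 to 112500; edgeR adjusted p = 0.00789). Its Meschnikoff libraries lay between those of Heider and the near absence of counts in the late larvae. TCONS_00053046, of 1092 bases, had 0.754 and 0.141 CPM in Krohn and 0.0627 and 0.128 CPM in Spengel, against 66.6 and 4.09 CPM in Heider and 93.8 and 47.6 CPM in Meschnikoff. The Heider replicates differed widely, and every late library lay under every early one (log2 fold change -7.55 ± 1.10, SE; edgeR adjusted p = 0.00922).

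**Figure D1:**
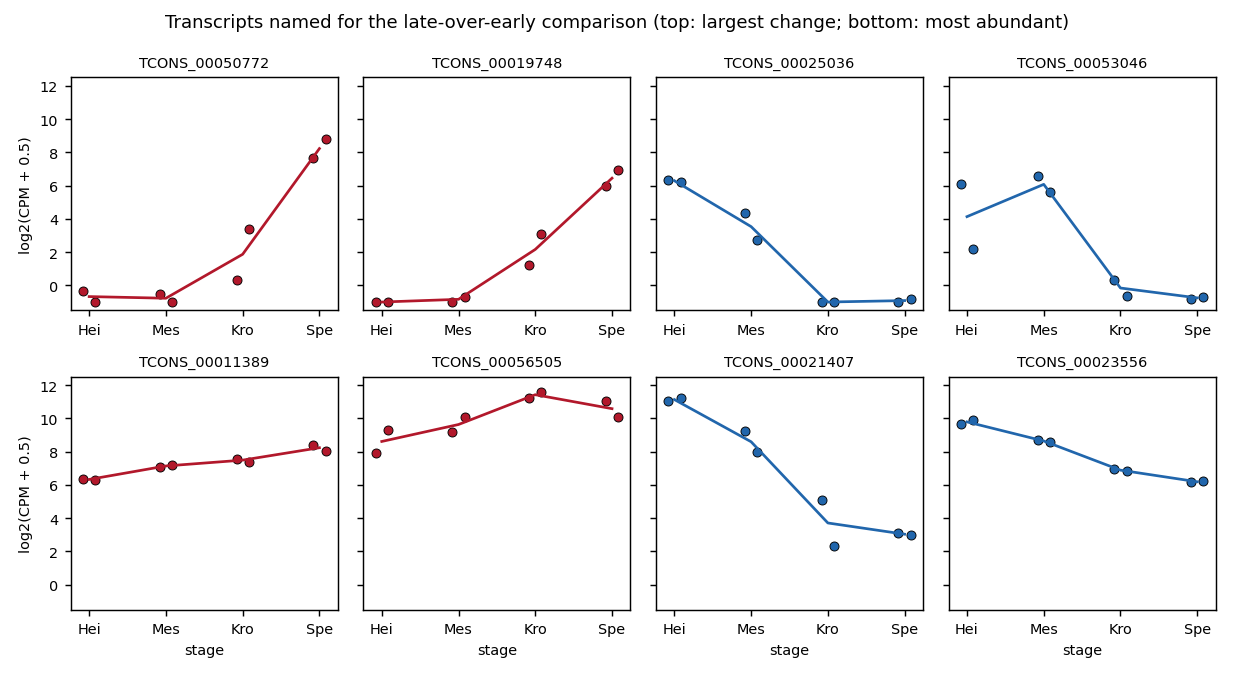
Levels of the 8 transcripts named for the late-over-early comparison in each library, as log2(CPM + 0.5), by stage in order (Hei, Heider; Mes, Meschnikoff; Kro, Krohn; Spe, Spengel). Points are libraries, lines join stage means, red marks higher and blue lower in late larvae; the upper row shows the largest changes, such as TCONS_00050772 with 198.8 and 448.2 CPM in Spengel, and the lower row the most abundant transcripts.

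The most abundant risers and fallers were chosen by mean TPM on their higher side, a scale that corrects for length. TCONS_00021407, of 420 bases, was the most abundant faller, with 208.7 and 26.2 TPM in Krohn and 51.5 and 49.6 TPM in Spengel, against 13390 and 15210 TPM in Heider and 3369 and 1473 TPM in Meschnikoff. Its stage mean was lower at each stage than at the one before, and no late library reached an early one (log2 fold change -6.65 ± 1.03, SE; edgeR adjusted p = 0.0101). TCONS_00023556, of 318 bases, had 1294 and 1109 TPM in Krohn and 771.9 and 853.5 TPM in Spengel, against 8797 and 10250 TPM in Heider and 3901 and 3839 TPM in Meschnikoff. No library of a stage overlapped those of the stage before (log2 fold change -2.75 ± 0.37, SE; edgeR adjusted p = 0.0081). The change was gradual by the shape rule given below, with a middle step close to the limit of that rule.

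The most abundant risers changed less. TCONS_00011389, of 381 bases, had 1428 and 1149 TPM in Krohn and 2568 and 2168 TPM in Spengel, against 632.3 and 581.7 TPM in Heider and 895.8 and 1041 TPM in Meschnikoff. It stood higher at each stage than at the one before (log2 fold change 1.13 ± 0.30, SE; edgeR adjusted p = 0.0438), but the adjusted p was between 0.0592 and 0.122 when any library but Meschnikoff replicate 2 or Krohn replicate 2 was left out. TCONS_00056505, of 1972 bases, had 1908 and 2249 TPM in Krohn and 1729 and 908.4 TPM in Spengel, against 195.7 and 506.3 TPM in Heider and 407.2 and 826.5 TPM in Meschnikoff. Its highest stage was Krohn (log2 fold change 1.79 ± 0.47, SE; edgeR adjusted p = 0.0428), and leaving out any library but Meschnikoff replicate 2 gave an adjusted p of 0.0528 to 0.101 (0.0235 without that replicate).

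The size of each of the 3 steps was measured as the difference of stage means on log2(CPM + 0.5). For the risers the median step was 0.17 from Heider to Meschnikoff (quartiles -0.08 and 0.55), 1.24 from Meschnikoff to Krohn (0.91 and 1.76) and 0.46 from Krohn to Spengel (0.08 and 1.02). For the fallers it was -0.66 from Heider to Meschnikoff (-1.09 and -0.29), -1.04 from Meschnikoff to Krohn (-1.34 and -0.80) and -0.11 from Krohn to Spengel (-0.40 and 0.14). Over all models tested the medians were 0.0, -0.02 and 0.01. The comparison of 4 libraries with 4 gives the middle step full weight and the outer steps less, so that a large middle step in these lists follows in part from the choice of members. The outer steps do not carry equal weight in it, since it compares the mean counts of the sides. A first-step rise lifts the early mean and a last-step fall leaves the late mean high, so both shrink the fold change. Among risers the largest step was the first for 74 (4.13%), the middle one for 1301 (72.6%) and the last for 418 (23.3%). Among fallers it was so for 186 (28.2%), 466 (70.6%) and 8 (1.21%). The contrast between risers and fallers in their outer steps thus also follows in part from the choice of members.

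**Figure D2:**
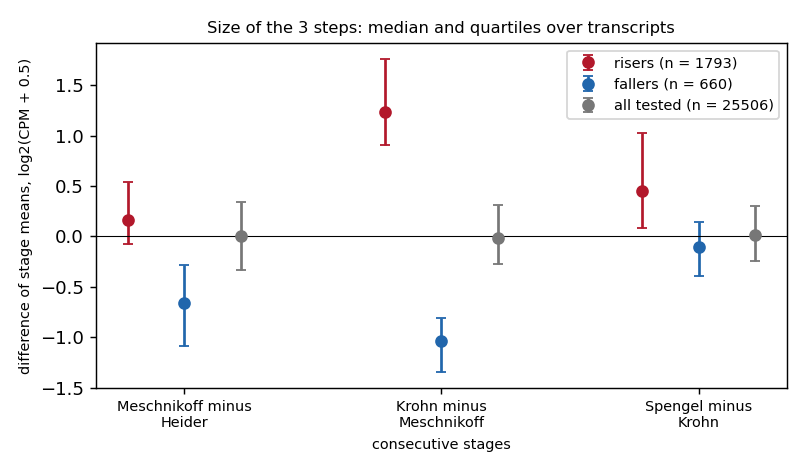
Difference of consecutive stage means on log2(CPM + 0.5) for the 1793 risers, the 660 fallers and all 25506 models tested; points are medians over transcripts and bars run between the quartiles, which are not errors. Outside the middle step, the median riser moved more from Krohn to Spengel (0.46) than from Heider to Meschnikoff (0.17), and the median faller more from Heider to Meschnikoff (-0.66) than from Krohn to Spengel (-0.11). This contrast follows in part from the choice of members.

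Each riser and faller was then given a shape from its 4 stage means. Gradual meant that all 3 steps ran with the change and none was over 50% of the Heider-to-Spengel difference. A step meant that 1 of the 3 held at least 75% of that difference and each of the others at most 25% in size. Uneven meant that all 3 ran with the change without meeting either rule, and the remainder were reversing. Among the 1793 risers 260 (14.5%) were gradual, 314 (17.5%) had a step from Meschnikoff to Krohn, 42 (2.34%) had one from Krohn to Spengel and 0 had one from Heider to Meschnikoff. Another 552 (30.8%) were uneven and 625 (34.9%) reversing. Among the 660 fallers 120 (18.2%) were gradual, 10 (1.52%) had a step from Heider to Meschnikoff, 62 (9.39%) had one from Meschnikoff to Krohn and 0 had one from Krohn to Spengel, while 197 (29.8%) were uneven and 271 (41.1%) reversing. Both directions together, 380 were gradual and 428 had a step. These counts were 78 and 230 without Heider replicate 1, 201 and 240 without Meschnikoff replicate 1, 72 and 220 without Spengel replicate 1, and 120 and 218 without Spengel replicate 2. When each transcript was instead assigned to the nearest of a straight line and 3 single steps, 736 risers (41%) were nearest to the line, 840 (46.8%) to the middle step and 212 (11.8%) to the last, and of the fallers 292 (44.2%) were nearest to the line, 290 (43.9%) to the middle step and 77 (11.7%) to the first.

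Reversing shapes were read by the size of the step against the change. Of the 625 reversing risers, 607 had a step against the change, with a median size of 0.24 on the log2 scale. It was under 0.25 for 317 of them and at least 2-fold for 23, and it was the Heider-to-Meschnikoff step for 407 and the Krohn-to-Spengel step for 200. Of the 271 reversing fallers, 270 had such a step, with a median size of 0.28, under 0.25 for 121 and at least 2-fold for 6. There it was the Heider-to-Meschnikoff step for 66 and the Krohn-to-Spengel step for 204. TCONS_00050772 is an example: its Meschnikoff-minus-Heider step was -0.10, set against 6.35 from Krohn to Spengel.

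The shapes also differed in level and size. The 42 risers with a step from Krohn to Spengel had a median of 2.84 TPM in late and 0.0466 TPM in early larvae, and a median log2 fold change of 4.68. The 260 gradual risers had 6.33 TPM in late and 1.06 TPM in early larvae, with a median log2 fold change of 2.39. Among fallers, the 10 with a step from Heider to Meschnikoff had a median of 0.112 TPM in late and 7.55 TPM in early larvae (median log2 fold change -5.67), and the 120 gradual ones 5.09 TPM in late and 16.5 TPM in early larvae (-1.79). An outer step has to be large to be called in a comparison that counts its stage differences as spread. The fold change of a first-step rise or a last-step fall is also made smaller there. These sizes are therefore a description of the lists.

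A second list came from the F test that any of the 4 stages differs, with at least a 2-fold difference between 2 of them. In this test a middle step, which divides the libraries evenly, is still easier to call than an outer step of equal size. The test called 2649 of 25506 models (10.4%), of which 1866 had a positive and 783 a negative slope over the 4 stages. Of the 1866, 251 (13.5%) were gradual, and steps fell between Heider and Meschnikoff for 87 (4.66%), between Meschnikoff and Krohn for 154 (8.25%) and between Krohn and Spengel for 109 (5.84%). Of the 783, 108 (13.8%) were gradual, and steps fell between Heider and Meschnikoff for 84 (10.7%), between Meschnikoff and Krohn for 23 (2.94%) and between Krohn and Spengel for 0. Among models not called late over early, 5% of the rising and 4.65% of the falling ones were gradual. Of those rising, 6.86%, 2.53% and 3.37% had the first, the middle or the last step, and of those falling 4.58%, 2.32% and 2.32%. Most models not called late over early were reversing, 72.3% of the rising and 77.5% of the falling ones. Calls and shapes come from the same 8 libraries, so the shares among models not called are no background for the late-over-early list. Models not called late over early can also include some of the any-stage list, so their shares are no background for that list either. Uneven and reversing shapes made up 539 (28.9%) and 726 (38.9%) of the 1866, and 179 (22.9%) and 389 (49.7%) of the 783. The middle step was thus the most frequent step among rising transcripts in both lists, whereas for falling transcripts the most frequent step was the middle one in the list from the 4-against-4 comparison and the first one here. Both lists favour a middle step among steps of equal size. The count of 2649 was 4001 without Heider replicate 1, 1194 and 1317 without Meschnikoff replicate 1 and 2, and 431 and 664 without Spengel replicate 1 and 2.

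**Figure D3:**
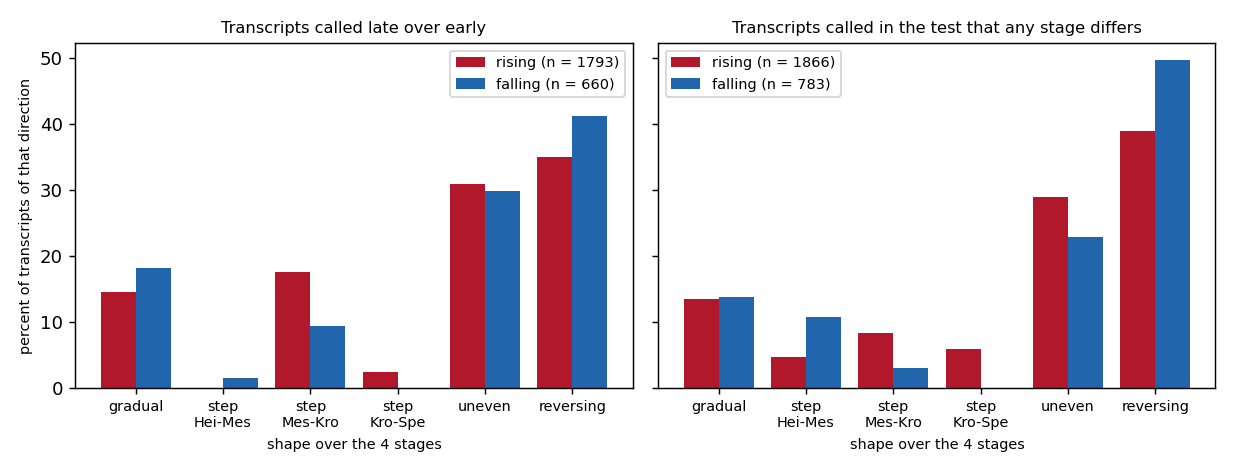
Percent of rising (red) and falling (blue) transcripts with each shape over the 4 stages, among the 1793 and 660 called late over early (left) and the 1866 and 783 called in the test that any stage differs (right). Gradual shapes took 13.5% to 18.2% in the 4 lists, against 5% and 4.65% of rising and falling models not called late over early. No falling transcript of these lists had a step from Krohn to Spengel, against 2.32% of falling models not called late over early. The models not called late over early were mostly reversing (72.3% of rising and 77.5% of falling ones) and are no background for the lists on either side. Calls and shapes come from the same libraries, and the models not called can include members of the lists on the right.

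A change along the 4 stages in order was tested with a linear contrast, which takes the stages as equally spaced, though the labels give no times. It called 3095 models (12.1%) higher and 1358 (5.32%) lower toward Spengel, and 9010 (35.3%) had an unadjusted p under 0.05. The sum of 4453 was 1603 without Spengel replicate 1 and 2576 without Spengel replicate 2. A departure from the line, the test that bears on steps, was called for 2 models (0.00784%) by edgeR's quasi-likelihood test with 4 residual degrees of freedom, while 3553 (13.9%) had an unadjusted p under 0.05. A model that does not pass is not thereby shown to lie on a line. The departure count ran from 0 to 949 when 1 library was left out (949 without Heider replicate 1, 0 without any other), and was 965 in a fit that took its spread from all 31 libraries.

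Transcripts that were gradual, called along the line and ordered so that every library of a stage lay beyond every library of the stage before numbered 83 rising and 54 falling among models with at least 10 CPM in their higher outer stage. Over all 25506 models tested, 372 (1.46%) had this order of libraries rising and 166 (0.651%) falling, and among risers and fallers 243 (13.6%) and 70 (10.6%) had it. The transcripts with the largest slopes among the 83 and 54 were named. TCONS_00037331, of 1897 bases, had 0.115 and 0.192 CPM in Heider, 0.496 and 1.01 CPM in Meschnikoff, 70.8 and 7.13 CPM in Krohn, and 241.3 and 230.8 CPM in Spengel. Its libraries stepped up at every stage, with Krohn replicates 10 times apart; its log2 change along the line from Heider to Spengel was 11.2 ± 1.31 (SE; edgeR adjusted p = 0.00337). TCONS_00040520, of 789 bases, had 0.172 and 0 CPM in Heider, 0.806 and 0.824 CPM in Meschnikoff, 12.4 and 12.2 CPM in Krohn, and 115.2 and 74.2 CPM in Spengel. The replicates of a stage stood close together next to the differences between stages. It had 2994 counts in Spengel and 3 in Heider, a ratio of 1046 (95% interval for counting error 357.6 to 5076; edgeR adjusted p of the line 0.000693).

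Of the falling gradual transcripts, TCONS_00030204, of 4172 bases, had 74.3 and 47.5 CPM in Heider, 21.6 and 13.1 CPM in Meschnikoff, 1.38 and 1.41 CPM in Krohn, and 0.125 and 0.321 CPM in Spengel. Each stage lay clear of the one before it, and the log2 change along the line was -8.33 ± 0.50 (SE; edgeR adjusted p = 0.000715). TCONS_00033608, of 986 bases, had 435.2 and 494.2 CPM in Heider, 70.7 and 28.1 CPM in Meschnikoff, 3.08 and 3.25 CPM in Krohn, and 1.88 and 3.08 CPM in Spengel. The difference between Krohn and Spengel was small next to the earlier ones, and on the TPM scale those libraries overlapped; the log2 change along the line was -7.98 ± 0.54 (SE; edgeR adjusted p = 0.000898).

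Tests of single steps between consecutive stages compare 2 libraries with 2 and called few models. Meschnikoff over Heider gave 20 higher (0.0784%) and 7 lower (0.0274%), with 4718 (18.5%) at an unadjusted p under 0.05. Of the 20 higher, 6 had a step there, 4 were uneven and 10 reversing, and their highest stage was Krohn for 12, Spengel for 5 and Meschnikoff for 3. Of the 7 lower, 6 had a step there and 1 was reversing. Their log2 fold changes ranged in size from 2.20 to 8.70 for the 20 and from 1.88 to 5.32 for the 7. The sum of 27 was 2102 without Heider replicate 1 and between 9 and 39 without any other library, the lowest being 9 without Meschnikoff replicate 2 or either Krohn library, with 10 without Heider replicate 2 and 12 without either Spengel library.

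TCONS_00030076, of 2940 bases, was the largest of these rises, with 443.3 and 759.5 CPM in Meschnikoff against 0.92 and 1.98 CPM in Heider, then 1562 and 1981 CPM in Krohn and 668.2 and 1221 CPM in Spengel. It was nearly off in Heider and on in all 6 later libraries, with Krohn highest (log2 fold change, Meschnikoff over Heider, 8.70 ± 0.62, SE; edgeR adjusted p = 0.00617; adjusted p of the departure from a line 0.0585). TCONS_00030077, of 315 bases, had 78.2 and 142.3 CPM in Meschnikoff against 0.517 and 0.447 CPM in Heider, then 283.6 and 370.4 CPM in Krohn and 124.7 and 237.3 CPM in Spengel. It followed the same order of stages (log2 fold change 7.81 ± 0.55, SE; edgeR adjusted p = 0.00617, and 0.0578 without Heider replicate 2). The identifiers of these 2 models are consecutive, and whether they share reads cannot be told from the tables.

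Among the falls, TCONS_00033706, of 1803 bases, had 0.62 and 0.317 CPM in Meschnikoff against 20.3 and 17.7 CPM in Heider, and 0.0629 to 0.188 CPM in the 4 late libraries (log2 fold change -5.32 ± 0.38, SE; edgeR adjusted p = 0.00617, and 0.0668 without Meschnikoff replicate 2). TCONS_00045476, of 3225 bases, had 1.99 and 1.33 CPM in Meschnikoff against 67.2 and 53.9 CPM in Heider, and 0.353 to 0.69 CPM in the late libraries (log2 fold change -5.18 ± 0.32, SE; edgeR adjusted p = 0.00465). In both, most of the difference lay before Meschnikoff, and both Meschnikoff libraries still lay above every late one. The 2 models that departed from a line, named after their values were seen, had a similar form at a higher floor. TCONS_00056464, of 2523 bases, had 6.64 and 7.92 CPM in Meschnikoff against 169.6 and 136.3 CPM in Heider, and 6.66 to 8.96 CPM in the late libraries (log2 fold change -4.39 ± 0.24, SE; edgeR adjusted p = 0.00324; departure 0.0405). TCONS_00055288, of 2596 bases, had 13.8 and 11.3 CPM in Meschnikoff against 195.1 and 186 CPM in Heider, and 9.53 to 10.5 CPM in the late libraries (log2 fold change -3.92 ± 0.20, SE; edgeR adjusted p = 0.00324; departure 0.0405). Their levels at the 3 later stages differed by less than 5 CPM between libraries, against a drop of over 100 CPM before.

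Krohn over Meschnikoff gave 9 higher (0.0353%) and 1 lower (0.00392%), with 3569 (14%) at an unadjusted p under 0.05. Of the 9, 2 had a step there, 3 were uneven and 4 reversing, and their highest stage was Spengel for 7 and Krohn for 2. The sum of 10 was 0 without either Meschnikoff or either Spengel library, 5 without Krohn replicate 1, 25 without Krohn replicate 2, and 107 and 141 without Heider replicate 1 and 2. TCONS_00018222, of 2715 bases, had 14.5 and 11.5 CPM in Krohn against 0.558 and 0.507 CPM in Meschnikoff, after 0.287 and 0.574 CPM in Heider and before 20.6 and 30 CPM in Spengel. The early libraries were alike and the late ones 20 times higher or more (log2 fold change, Krohn over Meschnikoff, 4.59 ± 0.39, SE; edgeR adjusted p = 0.0268, and 0.0717 to 0.318 without either Meschnikoff library, Krohn replicate 1 or either Spengel library). The single model lower in Krohn was TCONS_00028539, of 1587 bases, also named after its values were seen. Its shape was uneven and not a step. On log2(CPM + 0.5) it moved by -4.56 from Meschnikoff to Krohn and by -1.775 from Krohn to Spengel. It had 39.2 and 50.5 CPM in Krohn against 1236 and 913.9 CPM in Meschnikoff, after 1252 and 1236 CPM in Heider and before 12.3 and 13 CPM in Spengel (log2 fold change -4.58 ± 0.27, SE; edgeR adjusted p = 0.0121, and 0.0622 to 0.106 without the same 5 libraries). Its 4 early libraries lay between 913.9 and 1252 CPM, and its Spengel libraries lay below those of Krohn.

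Spengel over Krohn gave 0 higher (0%) and 0 lower (0%) in edgeR's quasi-likelihood test, with 2407 (9.44%) at an unadjusted p under 0.05. Other tools called 6 (edgeR without a trended dispersion), 248 (DESeq2's Wald test), 167 (limma on log2(TPM + 1)) and 0 (limma on log2(TPM + 0.1)), and the fit with all 31 libraries called 110. That fit also called 1163 models for Meschnikoff over Heider and 444 for Krohn over Meschnikoff. The order of the 3 steps by number of calls was the same in these fits except with limma on log2(TPM + 1), where Spengel over Krohn ranked first, and in edgeR without a trended dispersion, where Krohn over Meschnikoff did.

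**Figure D4:**
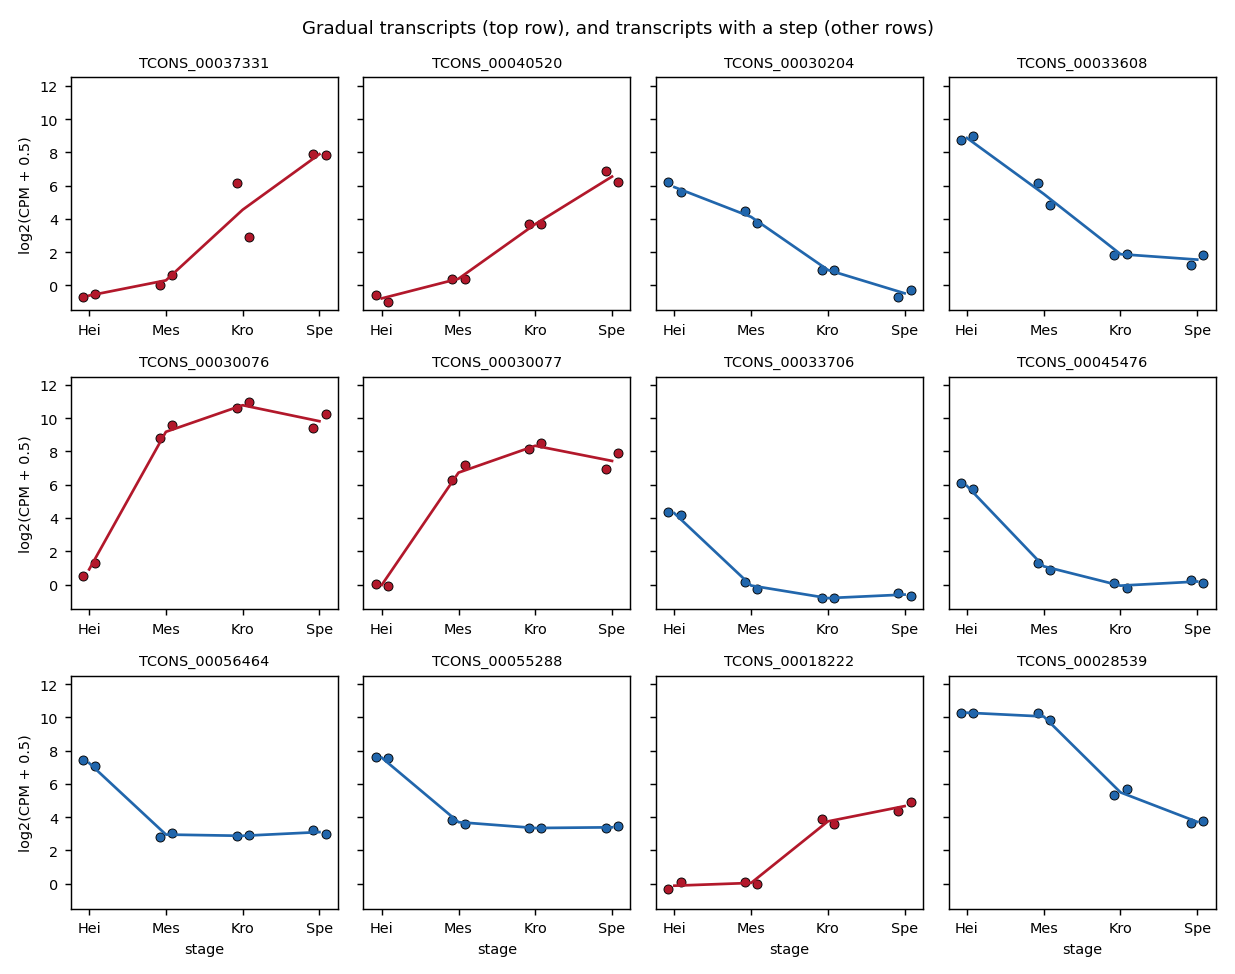
Levels in each library as log2(CPM + 0.5), by stage in order, for the 4 named gradual transcripts (top row), 4 with a step from Heider to Meschnikoff (middle row), and the 2 that departed from a line and the 2 named for their change from Meschnikoff to Krohn (bottom row). Of the last 2, TCONS_00018222 had the shape of a step there and TCONS_00028539 was uneven. Points are libraries and lines join stage means; on the CPM scale no library of a gradual transcript overlaps the stage before, narrowly so for TCONS_00033608 between Krohn and Spengel, and TCONS_00056464 lies between 6.64 and 8.96 CPM from Meschnikoff onward after 169.6 and 136.3 CPM in Heider.

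Stages outside the 4 gave libraries that had no part in choosing the members. In a fit on the other 23 libraries, Agassiz larvae, the stage after Spengel, were compared with tornaria at 72hpf (hours post fertilization), before Heider, with 2 libraries each. Over 29762 models tested, 5954 (20%) were higher and 4945 (16.6%) lower in Agassiz. Of the 1793 risers 1747 were tested there, and 1258 (72%) were higher in Agassiz and 9 (0.515%) lower. Of the 660 fallers 641 were tested, and 22 (3.43%) were higher and 397 (61.9%) lower. The median log2 fold change, Agassiz over 72hpf, was 3.78 for risers, -2.37 for fallers and 0 over all tested. With the models that had no count in 1 of the 2 stages set to their bound from 3 counts (282 risers, 18 fallers), the medians were 3.51 and -2.36, and -0.07 over all tested.

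The share that kept its direction there varied with shape. All 42 risers with a step from Krohn to Spengel were higher in Agassiz (100%), as were 201 of 254 gradual risers tested (79.1%), 418 of 537 uneven ones (77.8%), 431 of 616 reversing ones (70%) and 166 of 298 with a step from Meschnikoff to Krohn (55.7%). Among fallers, 90 of 120 gradual ones (75%) were lower in Agassiz, as were 131 of 192 uneven ones (68.2%), 6 of 9 with a step from Heider to Meschnikoff (66.7%), 33 of 60 with a step from Meschnikoff to Krohn (55%) and 137 of 260 reversing ones (52.7%). Each of these shares lay above the background of 20% higher and 16.6% lower, and the differences between shapes were not tested. That background covers all 29762 models tested in the other 23 libraries. It was not limited to the 25506 models from which risers and fallers were drawn.

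Across the 16 stages, the share of risers detected lay well below that of all models in embryos and early larvae and came nearer to it from Krohn on. The share of risers with a stage mean of 1 TPM or more was 10.4% in unfertilized eggs, 18.5% in late gastrulae, 22.9% at 72hpf, 35.2% in Heider, 40.4% in Meschnikoff, 77.5% in Krohn, 90.3% in Spengel, 77.7% in Agassiz, 74.3% in transforming larvae and 80.6% in the adult. Over all models tested it was 51.1% in unfertilized eggs, 70.9% in late gastrulae, 74.5% at 72hpf, 83.7% in Heider, 81.8% in Meschnikoff, 85.2% in Krohn, 89.2% in Spengel, 83.7% in Agassiz, 81.4% in transforming larvae and 82.5% in the adult. Risers thus exceeded it in Spengel alone, by a small margin, and that stage took part in choosing them. The highest stage of a riser was the adult for 558 (31.1%), Spengel for 444 (24.8%), Agassiz for 318 (17.7%), transforming larvae for 307 (17.1%) and Krohn for 102 (5.69%). Over all models tested the adult was highest for 15.3%, Agassiz for 9.01%, Spengel for 8.92% and transforming larvae for 7.98%. Compared with their late mean, 885 risers (49.4%) were at or above it in Agassiz, 847 (47.2%) in transforming larvae and 989 (55.2%) in the adult, against 40.6%, 41.5% and 37.8% of all models tested. Under 10% of the late mean were 105 (5.86%), 219 (12.2%) and 180 (10%), against 4.05%, 7.81% and 9.01% of all. Eggs, transforming larvae and adults were represented by a single library apiece, with no replicate check.

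The share of fallers detected was highest in Heider and lowest after it in the adult. Of the 660, 22.4% were at 1 TPM or more in eggs, 58.2% in early gastrulae, 76.1% in late gastrulae, 83.8% at 72hpf, 96.7% in Heider, 88.2% in Meschnikoff, 68% in Krohn, 68.5% in Spengel, 61.8% in Agassiz, 53.6% in transforming larvae and 49.8% in the adult. Over all models tested the share also rose through the embryo, at 63.6% in early gastrulae, 70.9% in late gastrulae, 74.5% at 72hpf and 83.7% in Heider, so that fallers lay below it in eggs, above it from late gastrulae to Meschnikoff and below it from Krohn on. Their highest stage was Heider for 290 (43.9%) and 72hpf for 84 (12.7%), against 10.4% and 2.54% of all models tested. Of these stages, Heider took part in choosing the fallers. At 72hpf 260 fallers (39.4%) were at or above their early mean, against 31.7% of all models. Under 10% of it were 225 (34.1%) in Agassiz, 274 (41.5%) in transforming larvae and 331 (50.2%) in the adult, against 4.21%, 7.43% and 9.37% of all models.

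**Figure D5:**
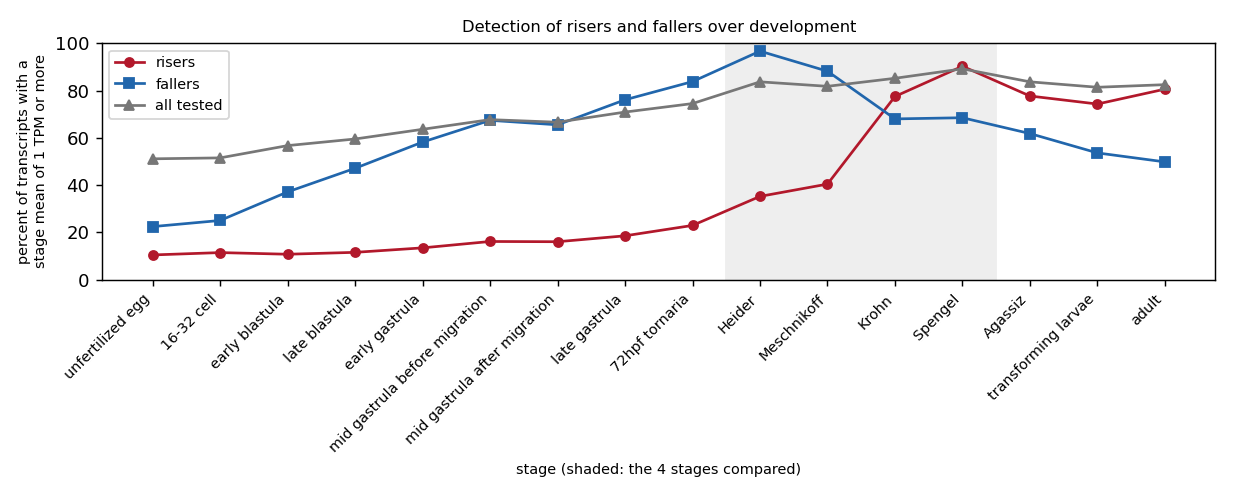
Percent of risers (circles), fallers (squares) and all models tested (triangles) with a stage mean of at least 1 TPM, over the 16 stages in order; the shaded stages are the 4 compared, whose libraries chose the risers and fallers. Risers stood at 22.9% at 72hpf and 77.7% in Agassiz, and fallers at 83.8% and 61.8%.

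Single transcripts followed different courses after Spengel. TCONS_00050772 averaged 294.8 TPM in Agassiz and was at 0.108 TPM in transforming larvae, and TCONS_00019748 was at 561.1 TPM in Agassiz, 63.5 TPM in transforming larvae and 0.482 TPM in the adult. Of all 16 stages these 2 had their highest mean in Agassiz and in Spengel, at 294.8 and 739.7 TPM. TCONS_00040520 was at 863.9 TPM in transforming larvae and 523.9 TPM in the adult, and TCONS_00011389 at 3575 TPM in Agassiz, 4439 TPM in transforming larvae and 1814 TPM in the adult, so that both were present after settlement. TCONS_00030076 averaged 91.9 TPM and TCONS_00056505 122.4 TPM in Agassiz. Among the fallers, TCONS_00021407 averaged 23480 TPM in late gastrulae and 42850 TPM at 72hpf, higher than in any library of the 4 stages. TCONS_00023556 averaged 16450 TPM at 72hpf, 117.3 TPM in Agassiz and 11.4 TPM in transforming larvae. TCONS_00025036 (323.5 TPM), TCONS_00053046 (674.9 TPM), TCONS_00033608 (1216 TPM), TCONS_00033706 (118.4 TPM) and TCONS_00045476 (153 TPM) were also present at 72hpf. All 5 stood above their Heider mean there.

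The transcripts with a Heider-to-Meschnikoff step differed in what came before. TCONS_00056464 averaged 7.51 TPM at 72hpf, 94.2 TPM in Heider and 4.09 TPM in Meschnikoff, and TCONS_00055288 averaged 11.9 TPM at 72hpf, 113.7 TPM in Heider and 6.8 TPM in Meschnikoff. Their Heider level thus stood out from both neighbouring stages, in both Heider libraries. Over all stages both were highest in the single egg library, at 178.6 TPM for TCONS_00056464 and 270.2 TPM for TCONS_00055288, and in the adult they were at 50 and 68 TPM. TCONS_00028539 averaged 63.1 TPM at 72hpf, 1284 TPM in Heider, 1004 TPM in Meschnikoff and 43.2 TPM in Krohn, and no stage outside the 4 reached its Meschnikoff mean.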

How the data were processed

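RNA of whole wild-type larvae was measured in 8 libraries (2 each of Heider, Meschnikoff, Krohn and Spengel), made with a polyA-selecting, strand-specific kit per the labels' protocols. The deposited tables hold estimated counts per transcript model, which need not be whole, and TPM, a relative abundance that the authors corrected for effective length. Further columns, the length and the effective length in bases, are named so per the file headers. kallisto and edgeR are named in the submitters' processing notes. No version of either, no genome build and no origin of the models is named in the sources used here. The identifiers were looked up in a RefSeq gene table of 38920 entries, and 0 of 35854 matched.

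Estimated counts were rounded to whole numbers. Models were kept by filterByExpr by stage on the 8 libraries (25506 of 35854), with TMM scaling factors of 0.9333 to 1.0568. edgeR 4.0.16 in R 4.3.3 (limma 3.58.1) fitted a quasi-likelihood model with trended dispersion, with 2 groups of 4 libraries (6 residual degrees of freedom) for late over early, and with 1 coefficient per stage (4 residual degrees of freedom) for consecutive stages, the linear trend, the departure from it and the test that any stage differs. Benjamini-Hochberg adjustment ran over all models tested. A call needed an adjusted p under 0.05 and at least 2-fold, except the departure, which had no fold threshold. Agassiz was compared with 72hpf tornaria in a fit on the other 23 libraries. Shapes used stage means of log2(CPM + 0.5). Ratios against 1 to 3 counts carry 95% intervals (exact, conditional on the sum) for counting error alone, since reads without molecular identifiers are not independent molecules. DESeq2 1.42.0 and limma on log2(TPM + 1) and log2(TPM + 0.1) were alternatives, as were other normalization, filters, shape limits, a replicate block, all 31 libraries and leaving out each library. The remaining steps ran in Python 3.11.15 with SciPy 1.17.1 and pandas 2.3.3. The fits were tested on simulated data.

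In each set (late over early, gradual, each consecutive step with that shape, most abundant) up to 2 rising and 2 falling transcripts were named, by fold change or, for abundance, by TPM, with a mean of at least 10 CPM on the higher side and no overlap of the sides. The other 3 were named after their values were seen. The comparison, lists and rules were chosen with earlier results of these data known. Libraries of a stage are numbered as replicates in their titles. The labels name no cultures or parents, so that p-values cover only the spread among these libraries, which may be technical. Replicates of a stage differed by more than sampling noise (chi-square per degree of freedom 31.98 to 85.23).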

Additional observations from a re-analysis of the deposited data

Results flagged for a closer look

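In 6 of 48 groups of 4 libraries examined, 1 library stood apart from the other 3 (gap over range above Dixon's 95% critical value). The 48 groups covered the named transcripts and library measures such as depth, and all 6 were of named transcripts. Chance gives about 1 in 20 such groups, and each group holds libraries of 2 stages. TCONS_00019748 was at 0.1268 CPM in Meschnikoff replicate 2 and at 0 in the other early libraries, and TCONS_00025036 at 0.06415 CPM in Spengel replicate 2 and at 0 in the other late libraries; these are 2 counts and 1 count. TCONS_00053046 was at 0.7542 CPM in Krohn replicate 1, against 0.06268 to 0.1412 CPM in the other late libraries. TCONS_00021407 was at 33.12 CPM in Krohn replicate 1, against 4.588 to 8.086 CPM in the other late libraries. TCONS_00033608 was at 1.88 CPM in Spengel replicate 1, against 3.079 to 3.247 CPM in the other late libraries. TCONS_00028539 was at 913.9 CPM in Meschnikoff replicate 2, against 1236 to 1252 CPM in the other early libraries.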

How the results depend on the processing

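The direction of all 20 named results held in 316 values under the alternatives: 283 kept their call, 33 lost it and 0 reversed. Most were named for large changes or high levels with no overlap of the sides in these same libraries. That choice made a reversal unlikely, so the absence of reversals says little about the other models. The counts were less stable, and the cause was not tested. Scaling with DESeq2 size factors in place of TMM gave 5 departures from a line. Without the low-count filter there were 101 calls for Meschnikoff over Heider, 79 for Krohn over Meschnikoff and 13 departures. edgeR without a trended dispersion gave 41, 78 and 6 calls for the 3 consecutive steps and 6 departures. DESeq2's Wald test gave 1033 fallers and 1505, 1021 and 248 calls for the steps. limma on log2(TPM + 1) gave 385 fallers and 110, 81 and 167 step calls, and on log2(TPM + 0.1) 69 and 66 for the first 2 steps. The fit of the 8 libraries with 1 coefficient per stage, which also gave the linear and any-stage counts, called 2633 risers and 905 fallers. The fit with all 31 libraries gave 2944 risers, 1124 fallers, 1163, 444 and 110 step calls, 5199 models that differ at any stage, and 965 departures. Taking the best of 4 one-parameter shapes, 1028 risers and fallers were nearest to a line and 1425 to a step, and with looser limits for both shapes 794 were gradual and 796 had a step, against 380 and 428. Samples with the same replicate number did not deviate together at every pair of stages (correlations of deviations -0.218 to 0.176), so the numbers were not taken as pairs. With the replicate block there were 1337 risers, 493 fallers, 20, 0 and 0 step calls and 1734 models that differ at any stage. TCONS_00011389, TCONS_00056505, TCONS_00018222 and TCONS_00028539 then had adjusted p of 0.0691, 0.0539, 0.0696 and 0.0663. Leaving out 1 library at a time gave 644 to 1910 risers, 218 to 989 fallers, 9 to 2102, 0 to 141 and 0 to 0 step calls, 431 to 4001 at any stage, 1603 to 4626 along the line, 0 to 949 departures, 72 to 368 gradual and 218 to 630 with a step. Of the risers and fallers, 1029 to 1116 and 346 to 373 were called in Agassiz over 72hpf when 1 of those 4 libraries was left out, against 1258 and 397. A stage left with 1 library was assumed to vary like the others.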
